A study of Homo sapiens with 14 samples.

Results

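The genes described here are 43 genes of the G1/S transition and of DNA replication, taken by symbol from the 23040 genes listed in each library. They were chosen by function as a named set, with earlier results of these data known. All 43 reached at least 1 RPKM (reads per kilobase and per M mapped reads) in at least 2 libraries. This was the minimum for testing, so all stood among the 13427 genes tested. RNA sequencing of total RNA was performed on Panc-1 and AsPC-1, human pancreatic cancer cell lines established from a primary ductal tumour and from ascites. Serum-starved cells of each line received angiogenin (ANG, ribonuclease 5, 1 µg/ml), proposed in the title of the series to bind the receptor EGFR, or epidermal growth factor (EGF, 50 ng/ml), the classical EGFR ligand, for 1, 5 or 24 h. Each line also had 1 mock library, giving 7 conditions per line and 14 libraries, 1 per condition. The labels do not say when the mock cells were harvested or whether they were starved, so ligand, starvation and time in culture cannot be told apart in a comparison with mock.

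Before S phase, the MCM2 to MCM7 helicase is loaded on origins by CDC6 and CDT1, and it is switched on with MCM10 and the GINS complex. Cyclin E with its kinase inactivates the RB protein family and so frees E2F transcription factors, which switch on genes for helicase loading, polymerases and nucleotide supply. Growth factor receptors such as EGFR act on this switch through cyclin D, and serum withdrawal is commonly used to hold cells before it.

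The libraries held an estimated 11.1 to 16.7 M reads in Panc-1 and 18.7 to 23.6 M in AsPC-1. One read in 2 kb of transcript was worth 0.0212 to 0.0451 RPKM, well below the lowest member value of 0.13 RPKM. Keratins and the other epithelial markers summed to 899 to 1378 RPKM in Panc-1 libraries, and in AsPC-1 libraries to between 1887 and 2463 RPKM, with 6 of 6 markers reaching 1 RPKM in each line. EPCAM, an epithelial adhesion molecule, was low in every Panc-1 library (4.88 to 5.58 RPKM) and high in every AsPC-1 library (149 to 230 RPKM), so each library matched its labelled line in this gene. Acinar, endocrine and endothelial markers stayed below 1 RPKM in sum. The leukocyte list (3 genes) summed to 28.4 to 46.8 RPKM (Panc-1) or 39.4 to 92.9 RPKM (AsPC-1). In AsPC-1 this was CD68, a lysosomal protein, at 39.4 to 45.1 RPKM in mock and 24 h libraries and 66.4 to 92.9 RPKM at 1 and 5 h, while the defining leukocyte genes PTPRC and CD3E were listed at 0 in all 7 AsPC-1 libraries. Of the fibroblast list (4 genes), LUM alone reached 1 RPKM, in AsPC-1, where the list summed to 26.7 to 46.7 RPKM.

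The labels name no batch and were taken as given. In each line, the 4 libraries labelled 1 h or 5 h differed from the other 3 in most of the 43 genes, in opposite directions between the lines. Results are given by these labels. Early time and any handling shared by the early libraries of a line cannot be told apart, and whether labelling had a part was not tested.

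Promoter letters show what most of these genes have in common outside the expression data. RefSeq promoter windows of 300 bases, 250 before the start site and 50 after it (assembly GRCh38.p14), matched 39 of the 43 genes, 38 by symbol and KIAA0101 under its newer name PCLAF. MCM4, MCM5, CCNE2 and E2F8 had no entry. The E2F letters TTGGCGC and TTCCCGC, with the variants TTCGCGC or TTGCCGC, searched on both strands, occurred in 35 of 49 member windows (71.4%), against 12.9% of all 34943 windows and 19.0% of the windows of tested genes. By gene this was 33 of 39 members, against 25.2% of the 8805 tested genes with a window. MCM10, CCNE1, POLD1, FEN1, SLBP and ASF1B had no match. CCAAT, the letters bound by NF-Y, stood in 29 of 49 member windows (59.2%) against 34.6% of all windows, and TTTGAA, the CHR element of mitotic promoters, in 2 of 49 (4.1%) against 15.2%. In the windows of tested genes the shares were 34.6% for CCAAT and 10.5% for TTTGAA. The E2F letters are rich in G and C, base composition was not matched, and a match is a description of the sequence. Stretches of 120 upstream bases follow, read 5′ to 3′ on the gene's strand, with E2F matches in capitals. The first 6 belong to genes that rose in Panc-1 and fell in AsPC-1 as described below. They run from base -120 to -1 before the start site, except RRM2 (-192 to -73) and KIAA0101 (-155 to -36).

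MCM3 (chr6:52284743-52284862, minus strand): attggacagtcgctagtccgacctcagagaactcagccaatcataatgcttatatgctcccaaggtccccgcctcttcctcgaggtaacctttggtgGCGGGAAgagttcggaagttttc
E2F1 (chr20:33686386-33686505, minus strand): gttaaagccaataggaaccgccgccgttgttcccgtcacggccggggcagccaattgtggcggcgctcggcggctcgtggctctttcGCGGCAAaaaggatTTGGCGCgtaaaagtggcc
PCNA (chr20:5126623-5126742, minus strand): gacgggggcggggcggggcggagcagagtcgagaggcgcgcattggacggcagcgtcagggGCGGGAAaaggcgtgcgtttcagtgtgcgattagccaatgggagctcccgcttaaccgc
RRM2 (chr2:10122376-10122495, plus strand): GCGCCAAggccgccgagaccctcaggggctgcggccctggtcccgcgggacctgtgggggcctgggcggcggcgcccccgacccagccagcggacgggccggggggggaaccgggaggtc
TK1 (chr17:78187053-78187172, minus strand): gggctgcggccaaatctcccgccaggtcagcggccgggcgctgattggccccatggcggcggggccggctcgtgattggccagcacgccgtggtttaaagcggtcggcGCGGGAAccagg
KIAA0101 (chr15:64381477-64381596, minus strand): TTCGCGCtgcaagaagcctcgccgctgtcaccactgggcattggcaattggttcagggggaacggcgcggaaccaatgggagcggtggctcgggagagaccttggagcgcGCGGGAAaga

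The next 4 stretches, all from -120 to -1, belong to genes that departed from that pattern in at least 1 line. CDC25A and TIPIN carry the palindrome of 2 overlapping E2F matches, while CCNE1 and SLBP carry no match in the window. MCM10, POLD1, FEN1 and ASF1B, also without a match, rose in Panc-1 and fell in AsPC-1 at 1 h with the majority.

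CDC25A (chr3:48188418-48188537, minus strand): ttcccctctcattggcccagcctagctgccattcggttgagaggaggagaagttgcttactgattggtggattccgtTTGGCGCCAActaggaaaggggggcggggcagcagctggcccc
TIPIN (chr15:66356686-66356805, minus strand): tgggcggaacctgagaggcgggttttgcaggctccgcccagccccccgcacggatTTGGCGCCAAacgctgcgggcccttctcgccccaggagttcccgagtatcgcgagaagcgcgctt
CCNE1 (chr19:29811871-29811990, plus strand): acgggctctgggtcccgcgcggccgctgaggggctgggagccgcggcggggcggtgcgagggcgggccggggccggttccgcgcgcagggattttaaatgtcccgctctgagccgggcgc
SLBP (chr4:1712320-1712439, minus strand): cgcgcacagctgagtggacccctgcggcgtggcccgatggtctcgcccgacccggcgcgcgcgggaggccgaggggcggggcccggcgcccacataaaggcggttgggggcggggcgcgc

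In Panc-1, the replication genes rose together at 1 h and 5 h and were back near mock at 24 h. Changes are differences of log2(RPKM + 1), so they understate the change of low genes, and they were tested with limma with Benjamini-Hochberg adjustment over all tested genes at a threshold of 0.05. At 1 h, 38 of 43 genes were higher than mock and 0 lower, where 5.76% of all tested genes were higher and 8.43% lower, with a median change of 1.19 for these genes and -0.06 for all tested genes. At 5 h, 35 were higher and 0 lower (4.8% and 11.2% of all tested genes), with a median of 1.04 against -0.10. At 24 h limma called 0 of the 43 in either direction (0.0% of all tested genes each way), 1 gene had an unadjusted p under 0.05, and the median was 0.05. The 24 h libraries lay on opposite sides of mock, with medians of -0.14 for ANG and 0.21 for EGF. For all tested genes these medians were -0.12 and -0.09. The ANG and EGF libraries of a time served as its pair of repeats, so their spread includes any ligand difference, and the lone mock was assumed to vary like the others. The labels name no separate cultures, so a p-value here reflects spread among these libraries, which may be technical. Leaving out 1 library of a time left a lone library there. The counts of genes passing then fell, both for the 43 and for all tested genes.

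AsPC-1 went the other way. At 1 h, 37 of the 43 genes were lower than mock and 0 higher, where 26.8% of all tested genes were lower and 9.6% higher, with a median change of -1.25. At 5 h, 39 were lower and 0 higher (29.5% and 11.1% of all tested genes), with a median of -2.01. At 24 h limma again called 0 genes in either direction (0.0% of all tested genes each way), 1 gene had an unadjusted p under 0.05, and the median was -0.15. The median of all tested genes was -0.14 at both 1 h and 5 h; when each library was centred on its median these became 0.11 and 0.15, and the members' medians -0.998 and -1.72. In bulk samples such as these, fewer cells in S phase and less RNA per cell cannot be told apart.

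**Figure D1:**
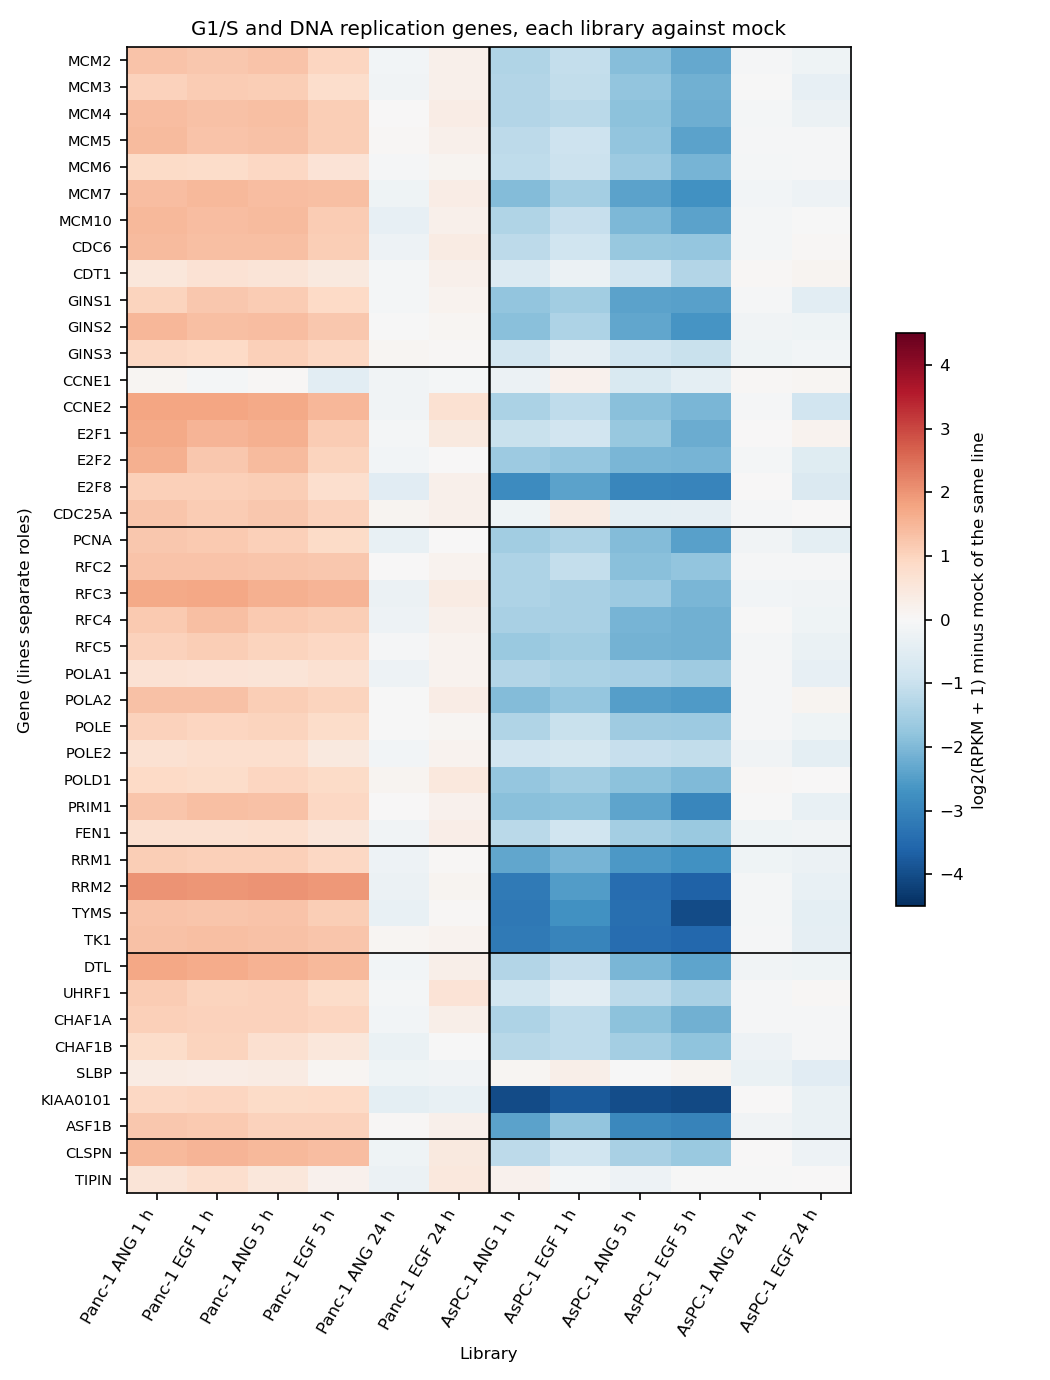
Change of each of the 43 genes (rows, grouped by role) in each treated library (columns) against the mock of its line, as the difference in log2(RPKM + 1); red is higher and blue lower. The Panc-1 columns at 1 h and 5 h are red for nearly all genes. In AsPC-1 the 1 h and 5 h columns are blue for most genes, with CDC25A between -0.44 and 0.36 there. The 24 h columns are pale in both lines. CCNE1, SLBP and TIPIN lie between -0.69 and 0.75 in every library.

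The ordering of libraries showed the same split without a test. All 4 Panc-1 libraries at 1 h and 5 h lay above all 3 mock and 24 h libraries for 41 of 43 genes (20.9% of all tested genes), the exceptions being CCNE1 and TIPIN. In AsPC-1 all 4 early libraries lay below the other 3 for 39 of 43 genes (31.5% of all tested genes), the exceptions being CCNE1, CDC25A, SLBP and TIPIN. Mean RPKM at 1 h and 5 h over mean RPKM of mock and 24 h had a median of 2.28 in Panc-1. It ran from 0.987 (CCNE1) to 4.16 (RRM2). In AsPC-1 the inverse ratio had a median of 3.09, from 0.767 (SLBP) to 23.6 (KIAA0101). Against mock alone, means of the early libraries were compared in log2(RPKM + 1). In Panc-1, 30 of 43 genes were at least 2-fold higher (411 of all 13427 tested genes). In AsPC-1, 35 of 43 were at least 2-fold lower (1616 of 13427). Depth did not separate these sets of libraries: the early Panc-1 libraries held 11.1 to 16.7 M reads and the others 12.7 to 15.6 M, and the early AsPC-1 libraries held 18.7 to 22.7 M against 19.8 to 23.6 M.

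Among the licensing and helicase genes, 11 of 12 rose at 1 h and at 5 h in Panc-1, all but CDT1, and 11 fell at 1 h and 12 at 5 h in AsPC-1. MCM7, a subunit of the helicase ring, was at 49.3 RPKM in Panc-1 mock, 131 and 136 RPKM at 1 h with ANG and EGF, 129.5 and 127 RPKM at 5 h, and 42.7 and 63.0 RPKM at 24 h. AsPC-1 held 122 RPKM of MCM7 in mock, 31.2 and 41.9 RPKM at 1 h, 21.9 and 17.5 RPKM at 5 h, and 112 and 103 RPKM at 24 h. No early library overlapped a mock or 24 h library in either line. The limma changes of MCM7 were 1.42 ± 0.24 and 1.36 ± 0.24 (SE) at 1 h and 5 h in Panc-1 and -1.73 ± 0.24 and -2.58 ± 0.24 in AsPC-1. MCM7 shares its span with AP4M1 on the other strand and holds 3 microRNA genes, and the strand setting of the counting is not given in the sources used here, so its level is uncertain.

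GINS2, a subunit of the complex that joins the helicase at firing, had 8.09 RPKM in Panc-1 mock, 24.8, 22.3, 23.0 and 20.1 RPKM in the early libraries (ANG then EGF at 1 h and at 5 h) and 7.96 and 8.59 RPKM at 24 h. Its AsPC-1 values were 20.6 RPKM in mock, 4.91, 7.33, 3.27 and 2.41 RPKM in the same order and 18.3 and 18.1 RPKM at 24 h. The 24 h libraries lay next to mock in each line, on the far side of the gap from the early ones. MCM10, which helps to activate the helicase, went from 4.87 RPKM in mock to between 12 and 15.1 RPKM in the early Panc-1 libraries and from 14.6 RPKM to 1.97 to 6.61 RPKM in the early AsPC-1 libraries. CDC6, the loader, reached 22.0 to 27.3 RPKM from 9.62 RPKM in Panc-1 and dropped to 4.59 to 9.16 RPKM from 17.8 RPKM in AsPC-1. CDT1, the partner of CDC6 in loading, was low throughout, at 1.61 to 3.28 RPKM across the Panc-1 libraries and 0.870 to 4.18 RPKM across those of AsPC-1, and its Panc-1 changes of 0.57 ± 0.22 and 0.52 ± 0.22 did not pass (limma adjusted p = 0.12 and 0.14).

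The other ring subunits, MCM2 to MCM6, kept close to each other. At 1 h they rose in Panc-1 by between 0.84 ± 0.19 (MCM6) and 1.36 ± 0.19 (MCM4). In AsPC-1 they fell at 5 h by between 1.85 ± 0.19 (MCM6) and 2.10 ± 0.22 (MCM2). Among the 12 licensing and helicase genes, the smallest falls at 5 h were those of GINS3 (-0.95 ± 0.18) and CDT1 (-1.10 ± 0.22).

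The G1/S regulators were divided. E2F1, an activating E2F, was at 8.90 RPKM in Panc-1 mock, 31.3 and 27.9 RPKM at 1 h with ANG and EGF, 29.3 and 20.9 RPKM at 5 h, and 8.38 and 12.5 RPKM at 24 h. In AsPC-1 it was at 17.5 RPKM in mock, 8.19 and 9.22 RPKM at 1 h, 4.71 and 2.97 RPKM at 5 h, and 17.6 and 19.4 RPKM at 24 h. These gave changes of 1.62 ± 0.28 and 1.38 ± 0.28 in Panc-1 and -0.93 ± 0.28 and -1.96 ± 0.28 in AsPC-1, all past the limma threshold. E2F2, also an activator, rose from 1.5 RPKM to 3.97 to 6.54 RPKM in Panc-1 and fell from 3.83 RPKM to 0.13 to 0.56 RPKM in AsPC-1, the lowest level of any member. E2F8, an atypical E2F that represses, fell in AsPC-1 from 12.1 RPKM to 0.650 to 1.48 RPKM, with changes of -2.62 ± 0.34 and -2.96 ± 0.34, while its Panc-1 changes of 1.07 ± 0.34 and 0.93 ± 0.34 did not pass (limma adjusted p = 0.070 and 0.099).

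The cyclin E genes parted from each other. CCNE2 went from 2.30 RPKM in Panc-1 mock to 10.4, 10.3, 9.72 and 8.23 RPKM in the early libraries and from 8.51 RPKM in AsPC-1 mock to 2.55, 3.31, 1.57 and 1.30 RPKM, and its 4 changes passed. CCNE1 stayed between 5.82 and 8.89 RPKM in all 7 Panc-1 libraries and between 3.17 and 6.59 RPKM in all 7 AsPC-1 libraries. Its early libraries overlapped the others in both lines, and the limma changes were -0.01 ± 0.24 and -0.20 ± 0.24 in Panc-1 and -0.04 ± 0.24 and -0.56 ± 0.24 in AsPC-1 (adjusted p = 0.092 for the last). CDC25A, the phosphatase that activates the cyclin E kinase, rose in Panc-1 from 2.38 RPKM to 5.89 to 7.03 RPKM, with changes of 1.19 ± 0.20 and 1.12 ± 0.20. In AsPC-1 it was at 8.28 RPKM in mock, 7.12 and 10.9 RPKM at 1 h, 5.84 and 5.99 RPKM at 5 h, and 7.97 and 8.28 RPKM at 24 h, with changes of 0.08 ± 0.20 and -0.42 ± 0.20 that did not pass (limma adjusted p = 0.79 and 0.13). CCNE2 overlaps INTS8 on the other strand, so its level is uncertain.

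**Figure D2:**
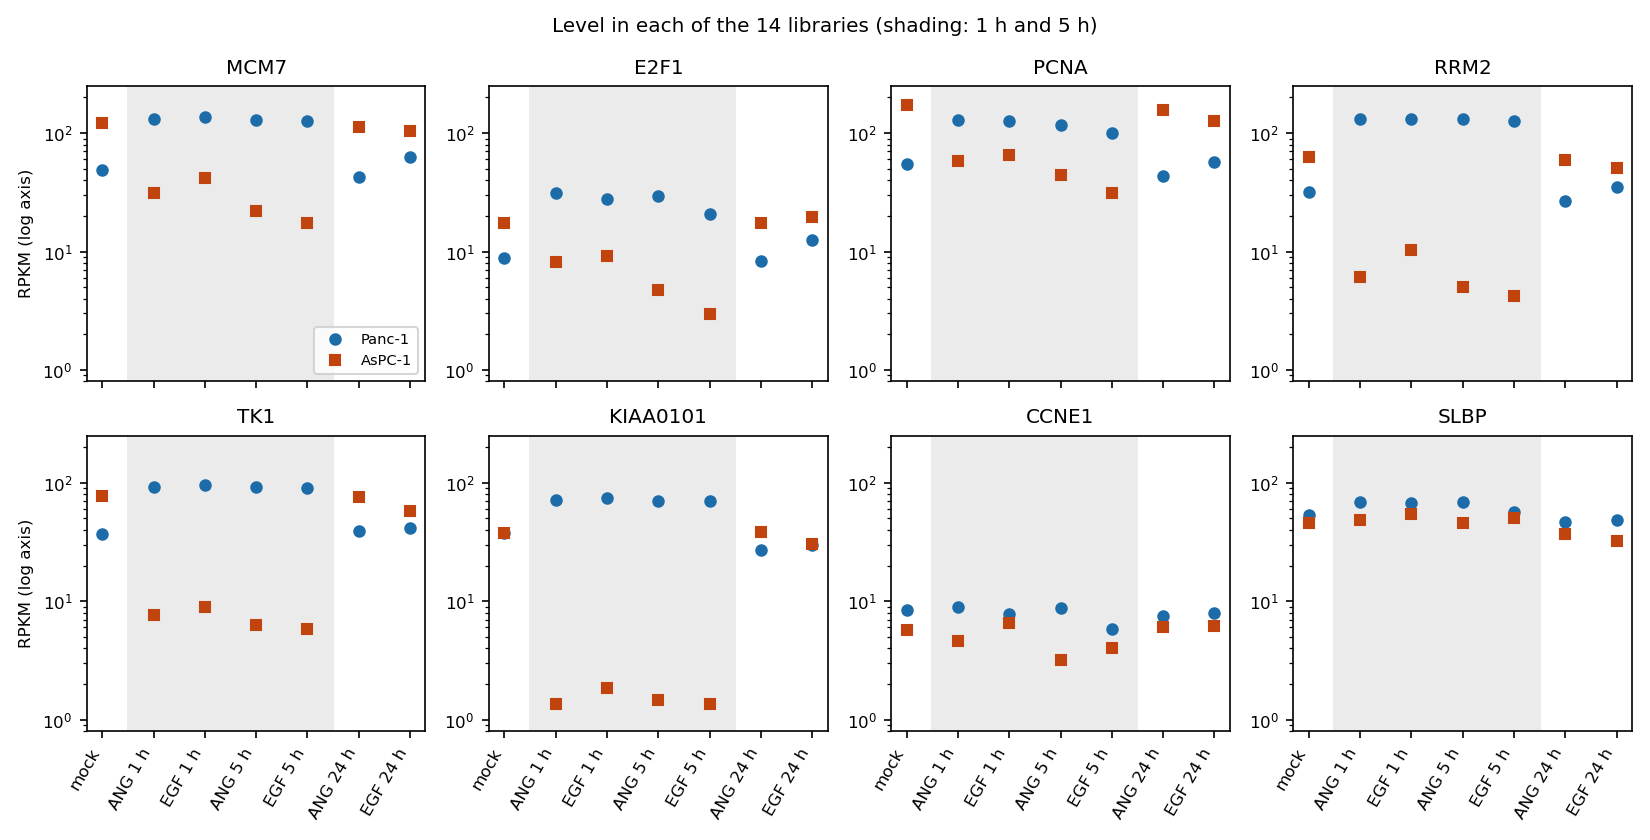
Level in RPKM (log axis) of 8 of the genes in each of the 14 libraries, 1 point per library, circles for Panc-1 and squares for AsPC-1, with the 1 h and 5 h conditions shaded. MCM7, E2F1, PCNA, RRM2, TK1 and KIAA0101 are higher in Panc-1 and lower in AsPC-1 inside the shading than outside it, while CCNE1 and SLBP stay within a narrow band.

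All 12 polymerase, clamp and clamp loader genes rose at 1 h in Panc-1 and 10 at 5 h, where POLE2 (0.60 ± 0.18) and FEN1 (0.65 ± 0.20) did not pass. In AsPC-1 all 12 fell at both times. PCNA, the sliding clamp, was at 55.2 RPKM in Panc-1 mock, 128 and 126 RPKM at 1 h, 117 and 100.4 RPKM at 5 h, and 43.5 and 56.6 RPKM at 24 h. AsPC-1 carried 174 RPKM of PCNA in mock, 58.5 and 65.7 RPKM at 1 h, 44.7 and 31.0 RPKM at 5 h, and 157 and 127 RPKM at 24 h. The limma changes of PCNA at 1 h and 5 h were 1.19 ± 0.24 and 0.96 ± 0.24 for Panc-1, then -1.47 ± 0.24 and -2.19 ± 0.24 for AsPC-1. In the clamp loader, RFC3 had the largest rise in Panc-1 (1.73 ± 0.24 and 1.57 ± 0.24), from 5.29 RPKM to 17.2 to 20.1 RPKM, and RFC5 had the smallest standard error of the 43 genes in these changes from mock (0.13), at 7.58 RPKM in Panc-1 mock and 46.5 RPKM in AsPC-1 mock.

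PRIM1 and POLA2 gave the deepest falls of this group in AsPC-1. PRIM1, the small primase subunit, was at 39.5 RPKM in mock, 9.93 and 10.4 RPKM at 1 h, 6.87 and 4.33 RPKM at 5 h, and 38.7 and 30.8 RPKM at 24 h, with changes of -1.86 ± 0.24 and -2.64 ± 0.24. POLA2, the accessory subunit of polymerase alpha, went from 29.3 RPKM to 4.11 to 8.17 RPKM, with changes of -1.83 ± 0.16 and -2.52 ± 0.16. POLA1, the catalytic subunit, had the smallest rise among those that passed in Panc-1 (0.63 ± 0.18 at both times), from 4.70 RPKM to 7.45 to 8.24 RPKM. POLE and POLD1, the catalytic subunits of polymerases epsilon and delta, rose at 1 h in Panc-1 by 0.99 ± 0.15 and 0.86 ± 0.17 and fell at 5 h in AsPC-1 by 1.63 ± 0.15 and 1.92 ± 0.17. Both POLA1, which holds SCARNA23 in its span, and RFC4, which overlaps EIF4A2, have uncertain levels for the reason given for MCM7.

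All 4 nucleotide supply genes rose in Panc-1 and fell in AsPC-1 at both early times. RRM2, the cell-cycle regulated subunit of ribonucleotide reductase, was at 32.1 RPKM in Panc-1 mock, 133 and 131 RPKM at 1 h, 132 and 125 RPKM at 5 h, and 26.6 and 35.4 RPKM at 24 h. In AsPC-1 it was at 63.2 RPKM in mock, 6.13 and 10.4 RPKM at 1 h, 5.01 and 4.18 RPKM at 5 h, and 59.3 and 50.4 RPKM at 24 h. AsPC-1 thus held more RRM2 than Panc-1 in mock and at 24 h, and less in all 4 early conditions. The limma changes of RRM2 were 2.01 ± 0.26 and 1.97 ± 0.26 in Panc-1 and -2.84 ± 0.26 and -3.52 ± 0.26 in AsPC-1. RRM1, the large subunit of the enzyme, changed by 1.09 ± 0.15 and 1.01 ± 0.15 in Panc-1 and by -2.21 ± 0.15 and -2.66 ± 0.15 in AsPC-1.

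TK1, the thymidine salvage kinase, was at 36.9 RPKM in Panc-1 mock, 92.8 and 95.3 RPKM at 1 h, 92.3 and 89.9 RPKM at 5 h, and 38.9 and 41.7 RPKM at 24 h. Its AsPC-1 levels were 77.3 RPKM in mock, 7.63 and 8.99 RPKM at 1 h, 6.32 and 5.84 RPKM at 5 h, and 75.3 and 58.0 RPKM at 24 h. These were changes of 1.33 ± 0.16, 1.28 ± 0.16, -3.08 ± 0.16 and -3.47 ± 0.16, each past the limma threshold. TYMS, thymidylate synthase, fell in AsPC-1 from 60.4 RPKM to 5.54 and 8.22 RPKM at 1 h and 4.79 and 2.73 RPKM at 5 h, and rose in Panc-1 from 44.9 RPKM to between 97.9 and 110.0 RPKM. ENOSF1 overlaps TYMS on the other strand, so the level of TYMS is uncertain.

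Of the 7 chromatin and clamp partner genes, KIAA0101, which codes for the PCNA-associated factor, had the largest fall of all 43 genes. It was at 37.9 RPKM in AsPC-1 mock, 1.36 and 1.85 RPKM at 1 h, 1.47 and 1.35 RPKM at 5 h, and 38.3 and 30.5 RPKM at 24 h. In Panc-1 it was at 37.5 RPKM in mock, 72.1 and 75.1 RPKM at 1 h, 69.6 and 70.0 RPKM at 5 h, and 27.1 and 29.8 RPKM at 24 h. The mock libraries of the 2 lines were thus nearly level in this gene, and every early library lay apart from them. Its changes were 0.95 ± 0.16 and 0.88 ± 0.16 in Panc-1 and -3.91 ± 0.16 and -4.01 ± 0.16 in AsPC-1 (limma adjusted p = 9.6e-06 for the last). DTL, the adaptor that targets CDT1 for destruction on PCNA, rose by 1.69 ± 0.19 and 1.51 ± 0.19 in Panc-1; the AsPC-1 falls were -1.18 ± 0.19 and -2.22 ± 0.19. CHAF1A, a subunit of the chromatin assembly factor, gave 1.05 ± 0.19 and 1.01 ± 0.19 in Panc-1 and fell in AsPC-1 by 1.25 ± 0.19 and 2.01 ± 0.19. Its partner CHAF1B rose at 1 h in Panc-1 (0.92 ± 0.19) and at 5 h gave 0.61 ± 0.19 (limma adjusted p = 0.055), and it fell at both times in AsPC-1. ASF1B, a histone chaperone, fell in AsPC-1 from 19.4 RPKM to 1.56 to 5.01 RPKM. UHRF1, which guides maintenance methylation, fell at 5 h (-1.32 ± 0.27) and at 1 h gave -0.65 ± 0.27 (limma adjusted p = 0.084).

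SLBP, which binds the stem-loop of replication-dependent histone mRNAs and is known to be controlled largely at the protein level, differed from the rest. It was at 53.3 RPKM in Panc-1 mock, 68.7 and 67.1 RPKM at 1 h, 68.7 and 57.2 RPKM at 5 h, and 46.8 and 48.0 RPKM at 24 h. In AsPC-1 it was at 45.9 RPKM in mock, 49.0 and 54.6 RPKM at 1 h, 45.5 and 50.6 RPKM at 5 h, and 36.8 and 32.2 RPKM at 24 h. SLBP was lower at 24 h than at the early times in both lines (-0.45 ± 0.10 and -0.52 ± 0.10, limma adjusted p = 0.0096 and 0.0026), and no other member was called in the same direction in both lines in this comparison. Against mock its AsPC-1 change at 1 h was 0.17 ± 0.14 and did not pass, but it passed as higher with libraries centred on their medians (0.43, limma adjusted p = 0.026) and with quantile normalization (0.36, limma adjusted p = 0.047).

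In the fork protection pair, CLSPN, the adaptor that passes the checkpoint signal to CHEK1, followed the majority. It went from 3.41 RPKM to 10.6 to 11.6 RPKM in Panc-1 and from 4.44 RPKM to 0.73 to 1.91 RPKM in AsPC-1, with changes of 1.49 ± 0.24, 1.43 ± 0.24, -1.04 ± 0.24 and -1.56 ± 0.24. TIPIN, its partner at the fork with TIMELESS, was at 11.1 RPKM in Panc-1 mock, 17.0 and 19.4 RPKM at 1 h, 16.2 and 13.0 RPKM at 5 h, and 9.14 and 16 RPKM at 24 h, so the early libraries overlapped the EGF 24 h library. In AsPC-1 it stayed between 3.93 and 5.65 RPKM. At 1 h its change was 0.66 ± 0.28 for Panc-1 and 0.05 ± 0.28 for AsPC-1, and neither passed (limma adjusted p = 0.15 and 0.93). The small RNA gene SCARNA14, at up to 1232 RPKM, lies in the span of TIPIN on the same strand, so the level of TIPIN is uncertain.

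The lines differed in the early change itself. The line difference, the AsPC-1 change minus the Panc-1 change from mock to the mean of 1 h and 5 h, was below 0 and past the limma threshold for 40 of 43 genes and above it for 0 (18.9% and 12.4% of all tested genes), with a median of -2.90 against -0.05 for all tested genes. RRM2 had the largest difference at -5.17 ± 0.33, followed by KIAA0101 at -4.87 ± 0.20 and by TK1 and TYMS at -4.58 ± 0.20 and -4.58 ± 0.38. This order is that of the log2(RPKM + 1) scale, which understates changes reaching low levels, as in KIAA0101 and E2F2. By role the median difference was -2.85 for licensing and helicase genes, -3.07 for G1/S regulators, -2.85 for polymerases, clamp and clamp loader, -4.58 for nucleotide supply, -2.66 for chromatin and clamp partners, and -1.65 for the fork protection pair. The 3 genes that did not pass were CCNE1 (-0.19 ± 0.31), SLBP (-0.17 ± 0.18) and TIPIN (-0.55 ± 0.36); CCNE1 turned positive with quantile normalization, and SLBP with quantile normalization and with centring. At least 2-fold above mock in Panc-1 together with at least 2-fold below mock in AsPC-1, as means over 1 h and 5 h on the log2(RPKM + 1) scale, were 28 of 43 genes (65.1%) and 1.78% of all tested genes.

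**Figure D3:**
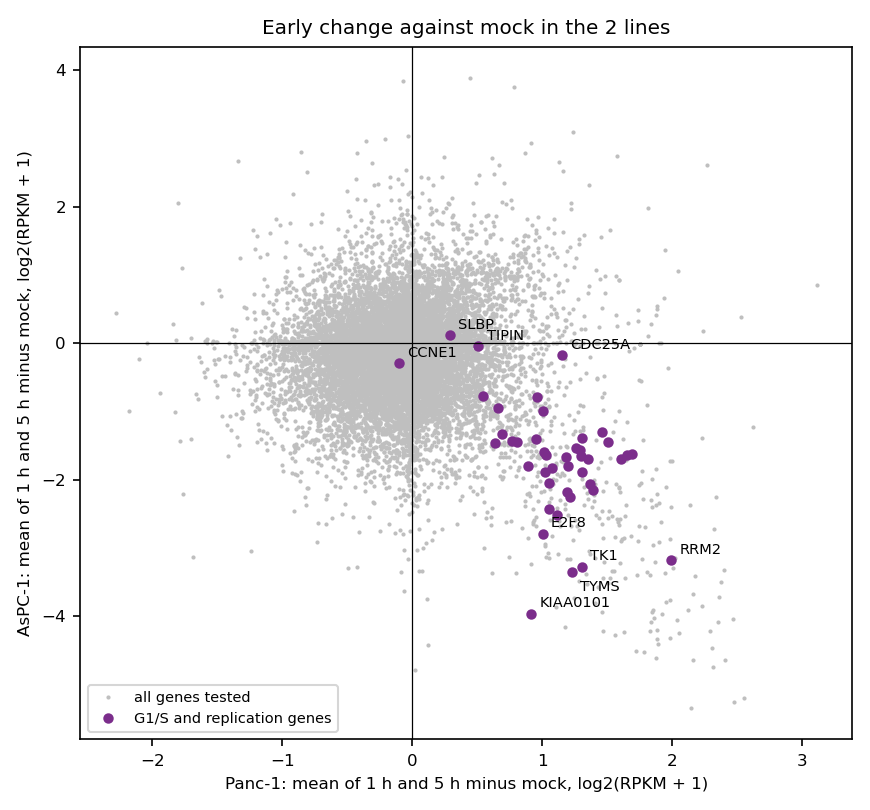
Mean change from mock over the 4 libraries at 1 h and 5 h in Panc-1 (horizontal) and in AsPC-1 (vertical), in log2(RPKM + 1), for all 13427 tested genes in grey and the 43 genes in purple. Most of the 43 lie in the lower right, with RRM2 farthest to the right among them, KIAA0101 lowest, and CCNE1, SLBP and TIPIN near the centre.

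The return at 24 h was tested against the early libraries, a comparison that needs no mock. In Panc-1, 41 of 43 genes were lower at 24 h than the mean of 1 h and 5 h and 0 higher (14.8% and 13.5% of all tested genes), with a median of -1.12; CCNE1 (-0.01 ± 0.17) and TIPIN (-0.39 ± 0.20) did not pass. In AsPC-1, 39 were higher and 1, SLBP, lower (28.0% and 17.6% of all tested genes), with a median of 1.52; KIAA0101 rose by 3.82 ± 0.11, TYMS by 3.09 ± 0.21 and TK1 by 3.05 ± 0.11. The difference between the lines in this step passed as higher for 40 genes and as lower for 0 (23.2% and 15.7% of all tested genes), with 5.03 ± 0.26 for RRM2 and 5.12 ± 0.16 for KIAA0101.

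Between the early times, levels averaged over the ligands went down in both lines for nearly all of these genes. For most genes this was toward mock in Panc-1 and further from mock in AsPC-1. The 5 h mean lay below the 1 h mean for 41 of 43 genes in Panc-1 (68.9% of all tested genes), the exceptions being GINS3 and POLD1, and for 43 of 43 in AsPC-1 (54.2% of all tested genes). The step from 1 h to 5 h was not tested. The EGF 5 h library was the lowest AsPC-1 library for 38 of 43 genes (22.0% of all tested genes) and the mock library the highest for 30 (35.1%). In Panc-1 the ANG 24 h library was the lowest for 33 genes (27.0%), and the ANG 1 h library the highest for 20 (10.6%).

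Averaged over line and time, no difference between EGF and ANG was detected in these genes. Over the 6 pairs of line and time, limma called 0 of 43 genes higher with EGF and 0 lower (0.142% and 0.0149% of all tested genes), with 0 genes at an unadjusted p under 0.05 and a median difference of 0.02. Changes ranged from -0.20 ± 0.10 (E2F2) to 0.12 ± 0.10 (CDC6), with standard errors of 0.058 to 0.183, and a p that misses the threshold does not show that the ligands act alike. The dependence of the EGF minus ANG difference on line (0.0% of all tested genes called in either direction) and on 24 h against the earlier times (0.0% each way) was called for 0 of 43 genes, with 1 gene each at an unadjusted p under 0.05. The test over the 6 pairs averaged pairs of opposite direction, with medians from -0.18 (Panc-1, 5 h) to 0.35 (Panc-1, 24 h). Whether the EGF minus ANG difference shifted between 1 h and 5 h was not tested. Against mock, each ligand alone showed the split, counted on the log2(RPKM + 1) scale. In Panc-1, genes at least 2-fold higher numbered 30 with ANG 1 h (3.77% of all tested genes), 31 with EGF 1 h (3.37%), 30 with ANG 5 h (4.1%) and 19 with EGF 5 h (3.89%). In AsPC-1, genes at least 2-fold lower numbered 35 with ANG 1 h (10.9%), 28 with EGF 1 h (12%), 37 with ANG 5 h (12.1%) and 39 with EGF 5 h (14.4%). At 24 h none of the 43 was 2-fold from mock on that scale in any of the 4 libraries; CCNE2 came nearest in AsPC-1 with EGF (-0.87), where it was at 4.19 RPKM against 8.51 RPKM in mock. In these libraries 2.56 and 1.99% (ANG and EGF, Panc-1) and 1.42 and 2.42% (AsPC-1) of all tested genes were 2-fold higher, and 0.0968, 0.186, 0.0447 and 2.76% lower. The 6 treated libraries of a line share its mock.

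Single pairs leaned to one side by small amounts. EGF lay above ANG for 15 of 43 genes in Panc-1 at 1 h (56.0% of all tested genes), 2 at 5 h (38.9%) and 42 at 24 h (54.7%), with medians of -0.02, -0.18 and 0.35. In AsPC-1 it was above ANG for 39 genes at 1 h (48.7%), 5 at 5 h (55.5%) and 14 at 24 h (34.4%), with medians of 0.26, -0.14 and -0.12. All differences lay between -0.83 and 0.85, each pair being 1 library against 1. The widest were those of CCNE2, in opposite directions at 24 h: 1.96 RPKM with ANG and 4.32 RPKM with EGF in Panc-1, and 8.25 RPKM with ANG and 4.19 RPKM with EGF in AsPC-1.

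**Figure D4:**
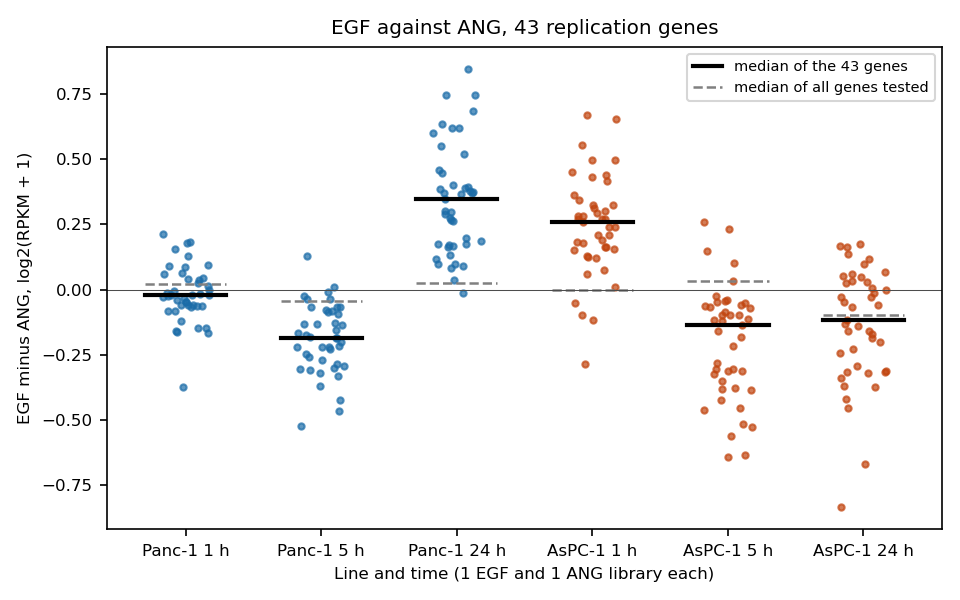
EGF minus ANG in log2(RPKM + 1) for each of the 43 genes (points) in each pair of line and time, 1 library each; the solid bar is the median of the 43 genes and the dashed bar the median of all tested genes. All points lie between -0.83 and 0.85, with the points of Panc-1 at 24 h and AsPC-1 at 1 h mostly above 0 and those of Panc-1 and AsPC-1 at 5 h mostly below it.

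Which line held more of these transcripts depended on the condition. In mock, AsPC-1 lay above Panc-1 for 39 of 43 genes (48.5% of all tested genes), with a median ratio of 2.38, from 0.434 for TIPIN to 6.13 for RFC5. It was also above for 39 genes with ANG at 24 h (50.8%) and 35 with EGF at 24 h (44.4%). At 1 h it was above for 1 gene with ANG (42.2%) and 1 with EGF (40.8%), and at 5 h for 0 with ANG (41.0%) and 1 with EGF (43.9%). CDC25A was the single gene with a higher early mean in AsPC-1, and the median ratio of early means was 0.287. Over all 7 conditions limma called CDC25A higher in AsPC-1 and 9 genes lower (29.3% and 39.6% of all tested genes), a comparison in which conditions of opposite direction were averaged. Lines were compared inside each condition, so leaving out 1 library also dropped its partner of the same condition in the other line. With 1 condition dropped in this way, 4 to 13 genes were lower. The count was 4 without any 1 of the early conditions and 13 without mock. CDC25A lost its call without mock, EGF 1 h, ANG 24 h or EGF 24 h. TIPIN (-1.40 ± 0.14) and SLBP (-0.38 ± 0.07) had the smallest standard errors beside CCNE1 (-0.54 ± 0.13) among the genes called lower.

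Other genes of the same processes moved with the 43. Among 48 further replication and S phase genes, 30 were higher and 0 lower at 1 h in Panc-1 (5.76% and 8.43% of all tested genes), and 26 and 0 at 5 h (4.8% and 11.2%). In AsPC-1, 0 were higher and 40 lower at 1 h (9.6% and 26.8%), and 0 and 42 at 5 h (11.1% and 29.5%). CDC45, which completes the active helicase, changed by 1.86 ± 0.23 and 1.72 ± 0.23 in Panc-1 and by -2.41 ± 0.23 and -2.97 ± 0.23 in AsPC-1. BRCA1, a recombination gene, had the largest falls of this list in AsPC-1 (-2.91 ± 0.27 and -3.51 ± 0.27). EXO1, a repair exonuclease, changed by 1.94 ± 0.24 at 1 h in Panc-1 and by -2.76 ± 0.24 at 5 h in AsPC-1, and LIG1, the ligase of Okazaki fragments, by -2.43 ± 0.24 and -2.66 ± 0.24 in AsPC-1. Of 30 mitosis and G2/M genes, 30 rose at 1 h and 29 at 5 h in Panc-1 (5.76% and 4.8% of all tested genes), and 29 fell at each time in AsPC-1 (26.8% and 29.5%). Their median changes were larger than those of the 43 (Panc-1, 1.54 and 1.47; AsPC-1, -2.84 and -3.49), a contrast that was not tested. TOP2A, the mitotic topoisomerase, changed by -4.37 ± 0.31 at 5 h in AsPC-1, and CENPF, a kinetochore protein, by 2.30 ± 0.43 at 5 h in Panc-1.

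The RB and E2F regulators did not move as a block. Of 22 tested, 4 rose and 1 fell at 1 h in Panc-1 (5.76% and 8.43% of all tested genes), and 3 rose and 2 fell at 5 h (4.8% and 11.2%). In AsPC-1, 3 rose and 12 fell at 1 h (9.6% and 26.8%), and 3 rose and 13 fell at 5 h (11.1% and 29.5%). Rises in AsPC-1 and falls in Panc-1 were thus near the share over all tested genes. E2F7, an atypical repressor E2F, rose in Panc-1 (1.52 ± 0.29 and 1.61 ± 0.29), as did the pocket protein gene RBL1 (1.00 ± 0.14 and 0.86 ± 0.14). RBL1 fell at 5 h in AsPC-1 (-1.94 ± 0.14), as did the kinase inhibitor genes CDKN2B (-2.34 ± 0.26) and CDKN2C (-1.86 ± 0.36). CCND1, cyclin D1, ran against the replication genes. It was at 64.6 RPKM in AsPC-1 mock, 234 and 233 RPKM at 1 h, 238 and 267 RPKM at 5 h, and 63.6 and 75.1 RPKM at 24 h, and in Panc-1 at 64.1 RPKM in mock, 34.2 to 44.5 RPKM early, and 56.5 and 75.9 RPKM at 24 h. Its early libraries lay above all others in AsPC-1 and below all others in Panc-1, with limma changes of 1.84 ± 0.21 and 1.95 ± 0.21 in AsPC-1. In Panc-1 the change was -0.74 ± 0.21 at 1 h, and at 5 h it was -0.65 ± 0.21 and did not pass (limma adjusted p = 0.062).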

How the data were processed

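RNA sequencing of total RNA (TRIzol) from 14 libraries was used, 1 per condition and cell line, grouped by the labels. The authors deposited log2 RPKM per gene with hg19 coordinates, per the file headers and the submitters' processing notes. The aligner, counting tool, annotation version, library strand setting and filters used by the authors are each not given in the sources used here. RPKM was recovered as 2 to the power of each log2 value, with the floor of -8.966 read as 0. Depth was estimated from genes spanning at most 150 bp, where 99.5 to 100% of values fell within 0.1 of a whole read number. No counts were rebuilt.

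Tests used limma 3.58.1 (R 4.3.3) with a variance trend on log2(RPKM + 1), pseudocount 1, for genes reaching 1 RPKM in 2 or more libraries, with Benjamini-Hochberg adjustment at 0.05. For comparisons over time, a model of 8 means (line by mock, 1 h, 5 h and 24 h) was fitted over all libraries; EGF was set against ANG inside each pair of line and time, and the lines inside each condition. RPKM is a share of each library's total, so a change in very abundant transcripts shifts all others. The procedure was tested on simulated data with independent noise for each gene and no handling effect shared by libraries. The alternatives were pseudocount 0.1, no filter, no trend, centring on library medians, quantile normalization, a ligand covariate, 1 line alone, the 6 treated conditions, and each library left out. Members and lists were chosen with earlier results of these data known. All 43 were described by role, with values in every library for up to 4 per role with the largest changes and for those that departed from the majority; related lists name genes from the 4 largest called changes of each list and comparison. Symbols TICRR and MCMBP of the replication list were not matched, and CCND2 missed the filter. Promoter windows came from RefSeq.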

Additional observations from a re-analysis of the deposited data

Results flagged for a closer look

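The change from mock to the early times (1 h and 5 h) differed between the lines by a limma interaction test for 40 of the 43 genes. All 40 were lower, where 18.9% of all tested genes were lower and 12.4% higher. As the AsPC-1 change minus the Panc-1 change it was -5.17 for RRM2, -4.87 for KIAA0101, -3.55 for MCM7 and -1.32 for CDC25A. The step from the early times to 24 h also differed between the lines for 40 genes, by 5.03 for RRM2 and 5.12 for KIAA0101. All 40 were higher, where 23.2% of all tested genes were higher and 15.7% lower. Both tests use the same early libraries, so they are not independent of each other, and the first rests on 1 mock library per line. No group held enough libraries for a check of single libraries against their own group.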

How the results depend on the processing

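No paired analysis by replicate number was possible because the labels carry none and each condition and line had 1 library; ligands were paired by line and time, and lines by condition, in the main comparisons. Centring on library medians gave 1 gene higher (SLBP) at 1 h and at 5 h in AsPC-1, and quantile normalization 1 at 1 h, in place of 0. The count of genes higher in AsPC-1 over all conditions went from 1 to 0 without the filter and with the 6 treated conditions. In that comparison, leaving out 1 library also dropped its partner of the same condition in the other line. With 1 library left out, genes higher in Panc-1 numbered 25 to 26 at 1 h (38 with all) and 22 to 29 at 5 h (35 with all), AsPC-1 minus Panc-1 gave 0 to 1 higher and 4 to 13 lower, and the line difference in the early change kept a count of 40. Single-gene results were followed only for genes called in the main fit or singled out by name, each counted once per alternative setting. Among these, 3834 kept direction and side of the threshold, 151 lost the call, 2 gained it and 10 turned sign. Gains of other genes are not in this tally. With quantile normalization, for example, genes higher at 5 h in Panc-1 numbered 40 in place of 35. Those 10 were differences that did not pass in any setting. CCNE1 at 1 h in Panc-1 (-0.0082) became 0.0457 with centring and 0.0541 with quantile normalization, and ran from -0.0899 to 0.0735 with 1 library left out; at 5 h it ran from -0.4626 to 0.0609. CDC25A at 1 h in AsPC-1 ran from -0.1929 to 0.3609 with 1 library left out. TIPIN at 1 h in AsPC-1 became -0.0045 with a ligand covariate and ran from -0.0946 to 0.1897 with 1 library left out. The line difference became 0.0746 for CCNE1 with quantile normalization, and for SLBP 0.0176 with centring and 0.0258 with quantile normalization. Causes were not tested. Counts over all tested genes moved more: those higher in AsPC-1 at 1 h ran from 494 (line alone) to 2608 (centred) around 1289, and at 24 h against mock, with 0 calls in AsPC-1, leaving out the ANG 24 h library gave 154 higher and 1064 lower. With 1 library of a time left out, the lone sample is assumed to vary like the others.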
